A study of Homo sapiens with 2 samples.

Results

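The unfolded protein response was followed in Huh7 cells through 10 genes: the stress sensors ERN1, EIF2AK3 and ATF6, the transcription factors XBP1, CREB3 and CREB3L3, and the genes HERPUD1, DNAJB9, SEL1L and EDEM1, which serve folding control and degradation at the endoplasmic reticulum (ER). They are 10 of the 19927 genes in the deposited count table, matched by symbol. Huh7 is an established human hepatocellular carcinoma line. The cells were kept for 48 h with DMSO, the solvent, as the control or with Homochlorcyclizine Dihydrochloride, an antihistamine, with its dose not given in the labels used here. Poly(A)-selected mRNA of 1 library per condition was sequenced. Both libraries come from the same unmodified line, and no second culture is named for either.

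The 10 genes were selected on their counts in these libraries, with the ratio of homochlorcyclizine to DMSO known. Their direction is therefore a description and not a finding, and no test was made. The DMSO library held 38133894 counts and the homochlorcyclizine library 40791119 counts. The hepatocyte and hepatoma markers ALB, AFP, APOA1, TTR, SERPINA1, GPC3 and HNF4A were all measured, at a summed 21006 CPM (counts scaled to library size) with DMSO and 18017 CPM with homochlorcyclizine. Of these, AFP and SERPINA1 moved most, with ratios of 0.725 and 1.34 (homochlorcyclizine over DMSO). The summed CPM was 42.2 against 45.6 for 6 fibroblast markers, 12.0 against 5.92 for 5 endothelial markers and 460 against 544 for 6 leukocyte markers. PECAM1 carried most of the endothelial sum, at 11.7 and 5.63 CPM, and LYZ most of the leukocyte sum, at 446 and 527 CPM. LUM, PDGFRA and CD68 had ratios of 1.28, 0.806 and 1.22. The defining leukocyte gene PTPRC had 2 and 6 counts. COL1A2, KDR and TEK were at 0 counts. A floor of 3 counts, taken as an approximate upper limit for a 0, is 0.0785 CPM with DMSO and 0.0737 CPM with homochlorcyclizine. The part of other cell types in the results was not tested.

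The unfolded protein response is the reaction of the ER to proteins that fail to fold. IRE1, the product of ERN1, cuts an intron out of XBP1 mRNA, which shifts its reading frame so that an active transcription factor is made. PERK, the product of EIF2AK3, phosphorylates the initiation factor eIF2alpha, which slows protein synthesis and favours translation of ATF4. ATF6 and the CREB3 family are membrane-anchored factors that are cut in the Golgi and then move to the nucleus. In ER-associated degradation (ERAD), misfolded proteins are recognised in the lumen, passed through a membrane complex built around the SEL1L adaptor and the SYVN1 ligase, and delivered to the proteasome. Hepatocytes secrete large amounts of protein, and CREB3L3 is a liver-enriched factor with targets in lipid metabolism.

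The sequence on which IRE1 acts is shown because it marks what gene-level counts cannot separate. In XBP1 transcripts of GENCODE 29 the intron is 26 bases long, a length that leaves a remainder of 2 when divided by 3. It lies at chr22:28796127-28796152 of GRCh38 on the minus strand, inside exon 4 and within the coding sequence. Of 5 coding transcripts, 3 hold it and 2 lack it. In the stretch at chr22:28796107-28796172 the intron is in capitals and the 20 bases on either side are in lower case.
XBP1 intron: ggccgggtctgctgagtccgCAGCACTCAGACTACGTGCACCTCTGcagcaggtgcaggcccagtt
Both forms count toward the same XBP1 total, so the share of spliced XBP1 was not analysed here.

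Promoter sequences are shown for the members that carry the ER stress response element, since chaperone genes with the same element differed from them in direction. The windows are those of RefSeq on GRCh38.p14, from 250 bases before the gene start to 50 after it, and all 10 members had one. The element ERSE was searched as CCAAT, any 9 bases and CCACG, and its shorter form ERSE-II as ATTGG, any 1 base and CCACG, each on both strands. ERSE was found in 27 of 35116 windows (0.0769%) and ERSE-II in 19 (0.0541%). Among the members XBP1 had a match to ERSE, from base -52 to base -34 at chr22:28800603-28800621, and HERPUD1 a match to ERSE-II, from base -117 to base -107 at chr16:56932025-56932035. The 250 upstream bases are printed with the match in capitals, at chr22:28800570-28800819 on the minus strand and chr16:56931892-56932141 on the plus strand.
XBP1 promoter: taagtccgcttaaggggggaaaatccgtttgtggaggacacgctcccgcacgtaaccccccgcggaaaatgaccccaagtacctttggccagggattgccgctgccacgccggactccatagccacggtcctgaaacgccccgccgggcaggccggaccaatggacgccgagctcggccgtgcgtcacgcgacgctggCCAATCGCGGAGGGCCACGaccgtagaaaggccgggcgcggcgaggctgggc
HERPUD1 promoter: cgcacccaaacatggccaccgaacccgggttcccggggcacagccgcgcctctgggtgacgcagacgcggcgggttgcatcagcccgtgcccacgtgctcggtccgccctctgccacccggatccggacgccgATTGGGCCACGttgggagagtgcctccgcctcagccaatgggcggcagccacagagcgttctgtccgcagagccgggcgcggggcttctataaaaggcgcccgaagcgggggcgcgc

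Windows around the same elements in ER chaperone genes are set beside them, with 10 bases on either side. HSPA5 encodes BiP, the main chaperone of the ER lumen (chr9:125241381-125241419, minus strand). CALR encodes the lectin chaperone calreticulin (chr19:12938374-12938412, plus strand) and SDF2L1 a partner of BiP (chr22:21642104-21642134, plus strand). HSP90B1 encodes the chaperone GRP94 and had a pair of ERSE matches, of which the one nearer the start is printed (chr12:103930311-103930349, plus strand). In CALR, HSP90B1 and SDF2L1 the element lies on the opposite strand and reads in reverse complement.
HSPA5 ERSE: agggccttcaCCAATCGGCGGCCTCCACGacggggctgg
CALR ERSE: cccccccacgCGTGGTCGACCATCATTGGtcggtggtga
HSP90B1 ERSE: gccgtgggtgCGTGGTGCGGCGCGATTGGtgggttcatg
SDF2L1 ERSE-II: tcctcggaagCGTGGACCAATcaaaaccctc
CRELD2 and PDIA6 also had an ERSE match, and HYOU1 had ERSE-II matches at bases -185 and -79.

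Levels of different genes were compared by the deposited FPKM, which scales counts to gene length. XBP1 was the most abundant member, at 338 FPKM with DMSO and 389 FPKM with homochlorcyclizine, above more than 99% of the genes in the table in both libraries (99.1% and 99.3%). CREB3L3 followed at 58.9 and 85.1 FPKM and HERPUD1 at 35.9 and 45.0 FPKM. A middle group of EDEM1, DNAJB9, CREB3 and SEL1L lay between 16.9 and 23.1 FPKM with DMSO and between 18.8 and 34.9 FPKM with homochlorcyclizine. The sensors were the lowest members per length: EIF2AK3 had 9.01 and 16.3 FPKM, ATF6 had 4.78 and 5.40 FPKM and ERN1 had 1.83 and 4.75 FPKM. XBP1 thus stood 184 times above ERN1, the gene of the enzyme that cuts its mRNA, with DMSO and 81.9 times above it with homochlorcyclizine. ATF6 stood 2.61 times above ERN1 with DMSO and 1.14 times with homochlorcyclizine. In the order of levels, 3 genes changed place: EDEM1 went from the 4th to the 6th, and DNAJB9 and CREB3 each moved up by 1.

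**Figure D1:**
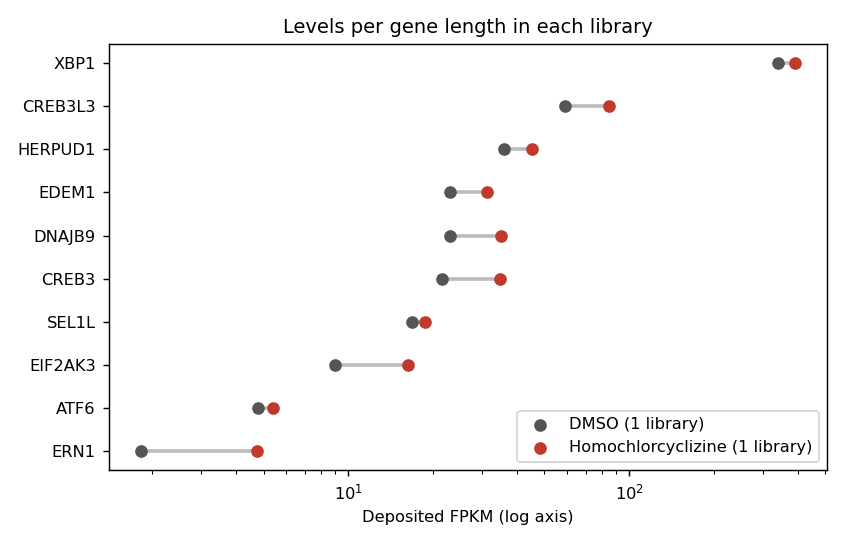
Deposited FPKM of the 10 genes (log axis) with DMSO and with homochlorcyclizine, 1 point per library, ordered by the DMSO level. XBP1 is highest at 338 and 389 FPKM and ERN1 lowest at 1.83 and 4.75 FPKM, and every gene is higher in the homochlorcyclizine library.

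For ratios between the libraries, counts were scaled to CPM with TMM library factors and compared gene by gene. Each ratio is given with an exact 95% counting interval, which does not cover the spread between cultures. Because the mRNA is from whole cultures, more RNA per cell and more cells that make it cannot be told apart. Counts of higher and lower genes take a ratio of 2-fold or more, or in a looser count 1.5-fold or more, whose interval leaves out 1. They cover the 12353 genes that averaged 1 CPM or more over both libraries, called measured genes. All 10 members passed that level, with 552 counts or more in each library.

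All 10 ratios were above 1, from 1.12 to 2.60, with intervals that excluded 1. Of all measured genes, 37.8% were higher and 40.0% lower with an interval that excluded 1, and 48.9% had a ratio above 1. One member, ERN1, was at least 2-fold higher, against 5.81% of measured genes, and none was 2-fold lower, against 5.10%. By the looser rule 4 members were at least 1.5-fold higher (ERN1, EIF2AK3, CREB3 and DNAJB9), against 14.1% of measured genes. The median log2 ratio of the members was 0.49 and that of all measured genes was -0.01. Since the members were chosen with these ratios known, nothing is read from the counts. Summed over the 10 genes, the level was 1243 CPM with DMSO and 1589 CPM with homochlorcyclizine.

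Among the sensors, ERN1 had the highest ratio. ERN1 (chromosome 17, 64039142 to 64130144) had 552 counts (14.4 CPM, interval 13.3 to 15.7) with DMSO and 1530 counts (37.6 CPM, 35.7 to 39.5) with homochlorcyclizine. The ratio was 2.60 (2.36 to 2.87), the 315th highest of the 12353 measured genes. EIF2AK3 (chromosome 2, 88556741 to 88628145) had 1323 and 2562 counts, or 34.6 (32.8 to 36.5) and 62.9 (60.5 to 65.4) CPM. Its ratio was 1.82 (1.70 to 1.94), the next highest of the members, and its interval did not reach that of ERN1. ATF6 (chromosome 1, 161766320 to 161964070) had 1815 and 2194 counts, or 47.5 (45.3 to 49.7) and 53.9 (51.7 to 56.2) CPM, a ratio of 1.13 (1.07 to 1.21). The intervals of the 3 sensors did not overlap, so their mRNAs differed in ratio beyond counting error.

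Other sensor genes of the same families had ratios between 0.833 and 1.14 where they were detected. ERN2, a paralog of ERN1 mostly of mucosal epithelia, had 0 counts in both libraries. ATF6B, the paralog of ATF6, had 26.3 and 26.7 CPM, a ratio of 1.01 (0.929 to 1.11). The other kinases that phosphorylate eIF2alpha are EIF2AK1, which senses heme, EIF2AK2, which senses double-stranded RNA, and EIF2AK4, which senses uncharged tRNA. EIF2AK1 had a ratio of 1.14 (1.11 to 1.18), EIF2AK2 one of 0.929 (0.866 to 0.997) and EIF2AK4 one of 0.833 (0.778 to 0.891). EIF2AK3, a member chosen with its ratio known, was the only one of the 4 kinase genes past 1.5-fold. Among measured genes 14.1% were 1.5-fold higher, and nothing is read from this contrast.

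Of the transcription factors, CREB3 had the highest ratio and XBP1 the lowest. CREB3 (chromosome 9, 35732666 to 35736999), also called Luman, had 1230 and 2123 counts, or 32.2 and 52.2 CPM, a ratio of 1.62 (1.51 to 1.74). CREB3L3 (chromosome 19, 4153631 to 4173054), also called CREBH, had 5752 and 8886 counts, or 151 (147 to 154) and 218 (214 to 223) CPM. Its ratio was 1.45 (1.40 to 1.499). XBP1 (chromosome 22, 28794560 to 28800569) had 22240 and 27407 counts, or 582 (574 to 590) and 673 (665 to 681) CPM. Its ratio of 1.16 (1.14 to 1.18) is small, while its gain of 5167 counts was the largest among the members.

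The rest of the CREB3 family went in different directions. CREB3L1, also called OASIS, had 198 and 575 counts, or 5.18 and 14.1 CPM, and was 2.72-fold higher (2.32 to 3.22). CREB3L2 had 104 and 75.3 CPM, a ratio of 0.725 (0.691 to 0.760), and CREB3L4 a ratio of 0.888 (0.782 to 1.01). MBTPS1, the Golgi protease that makes the first cut in ATF6 and the CREB3 factors, had a ratio of 1.24 (1.20 to 1.29), and MBTPS2, which makes the next cut, one of 0.957 (0.894 to 1.02). CREB3L1 was the only one of 8 measured genes in the list of other sensors, factors and proteases to pass 2-fold, and 3 of the 8 were above 1. Of all measured genes, 5.81% were 2-fold higher, 5.10% were 2-fold lower and 48.9% were above 1.

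The 4 genes of folding control and ERAD had ratios from 1.12 to 1.53. DNAJB9 (chromosome 7, 108569874 to 108574850) encodes ERdj4, a cochaperone that brings BiP to IRE1 and to misfolded proteins. It had 2109 and 3432 counts, or 55.2 (52.9 to 57.6) and 84.3 (81.5 to 87.2) CPM, a ratio of 1.53 (1.45 to 1.61). EDEM1 (chromosome 3, 5187707 to 5219958), which selects misfolded glycoproteins for degradation, had 4387 and 6347 counts, or 115 (111 to 118) and 156 (152 to 160) CPM. The EDEM1 ratio was 1.36 (1.31 to 1.41). HERPUD1 (chromosome 16, 56932142 to 56944864), a membrane protein of the SYVN1 ligase complex, had 3837 and 5140 counts, or 100.4 (97.3 to 104) and 126 (123 to 130) CPM. The HERPUD1 ratio was 1.26 (1.21 to 1.31). SEL1L (chromosome 14, 81471547 to 81533853), the adaptor that holds SYVN1 stable, had 4266 and 5076 counts, or 112 (108 to 115) and 125 (121 to 128) CPM. Its ratio of 1.12 (1.07 to 1.16) was the lowest of the 10.

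Ordered by ratio, the members ran ERN1, EIF2AK3, CREB3, DNAJB9, CREB3L3, EDEM1, HERPUD1, XBP1, ATF6 and SEL1L. Intervals of neighbours did not overlap between ERN1 and EIF2AK3 or between HERPUD1 and XBP1. Every other pair of neighbours had overlapping intervals. Overlap alone does not decide whether such neighbours differ beyond counting error, and their differences were not tested. From ERN1 to XBP1 the order ran largely from low to high FPKM with DMSO, from the 10th to the 1st place. ATF6 and SEL1L, the lowest in ratio, stood 9th and 7th in FPKM, so the order does not follow the levels throughout.

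**Figure D2:**
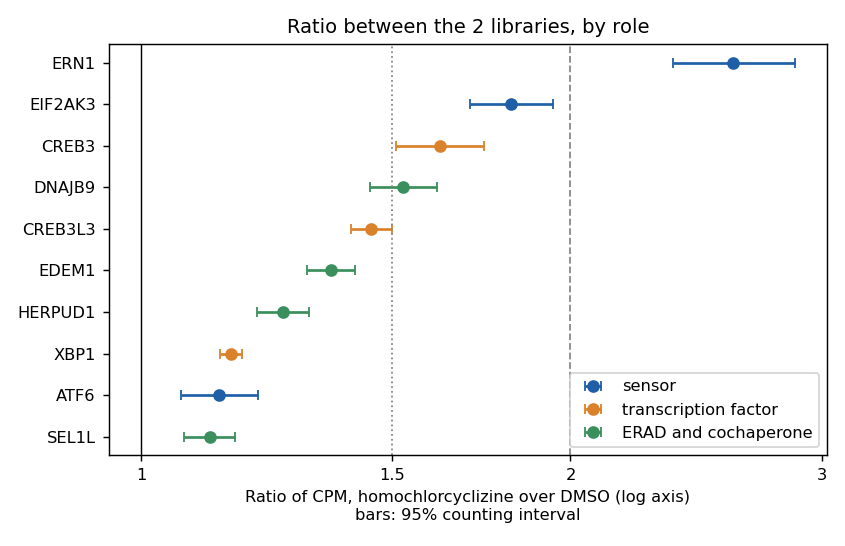
Ratio of TMM-scaled CPM, homochlorcyclizine over DMSO (log axis), for the 10 genes, coloured by role, with 95% counting intervals as bars and lines at 1, 1.5 and 2. ERN1 at 2.60 is the only gene past 2, while XBP1, ATF6 and SEL1L lie between 1.12 and 1.16.

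The rest of the ERAD machinery held no gene past 2-fold in either direction. Of 44 measured genes in 3 ERAD lists, 25 were above 1 and 19 below it, and their median log2 ratio was 0.11. The 25 are 56.8% of the 44, against 48.9% of all measured genes. Of all measured genes, 5.81% were 2-fold higher and 5.10% 2-fold lower, and 14.1% passed 1.5-fold in each direction. Among 8 lectins, mannosidases and lumenal partners, 6 were above 1. OS9, a lectin that binds SEL1L, had 183 and 285 CPM, a ratio of 1.56 (1.51 to 1.61), the only one of the 44 past 1.5-fold. EDEM2, the mannosidase that makes the first trim, had only 49 and 63 counts, with a ratio of 1.20 (0.818 to 1.79).

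Among 21 measured membrane ligases, their conjugating enzymes and channel proteins, 14 were above 1, against 48.9% of measured genes. Their median log2 ratio was 0.27. TMEM129, a membrane ligase, had the highest ratio of this list at 1.43 (1.29 to 1.60). ERLIN1, which with ERLIN2 targets inositol trisphosphate receptors for degradation, had the lowest at 0.667 (0.630 to 0.706). DERL3 had 2 counts with DMSO and 0 with homochlorcyclizine. Chosen after their values were seen, SYVN1, the ligase partner of SEL1L, had 57.6 and 71.8 CPM, a ratio of 1.25 (1.18 to 1.32), and DERL1, a channel protein, had one of 1.31 (1.26 to 1.36).

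Past the membrane, 10 of the 15 genes for extraction and delivery to the proteasome were below 1. The other 5 were above 1, against 48.9% of measured genes. The median log2 ratio of the list was -0.09, and that of all measured genes was -0.01. FAF2, a membrane anchor for the extraction ATPase, had 134 and 186 CPM, a ratio of 1.38 (1.33 to 1.43). VCP, the extraction ATPase itself, had 846 and 620 CPM, a ratio of 0.733 (0.721 to 0.745).

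Chaperone genes commonly assigned to ATF6 lay below 1. All 10 were measured and all 10 had ratios below 1, while 48.9% of measured genes were above 1. At least 2-fold lower were 4, against 5.10% of measured genes, and 1.5-fold lower were 7, against 14.1%. The median log2 ratio was -0.81. SDF2L1 had 65.3 and 24.2 CPM, a ratio of 0.370 (0.344 to 0.399). PDIA4, a disulfide isomerase, had a ratio of 0.404. HSP90B1 had 1470 and 684 CPM, and CRELD2 had 59.2 and 25.5 CPM. HSPA5 had 998 and 577 CPM, a ratio of 0.578 (0.569 to 0.588). The ratio nearest to 1 was that of DNAJB11, a BiP cochaperone, at 0.865 (0.839 to 0.892), against 1.12 for the lowest member. Summed over the list, the level was 4802 CPM with DMSO and 2674 CPM with homochlorcyclizine. The directions of this list and of the members were known when they were chosen.

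Listed genes with these promoter matches had ratios on both sides of 1. XBP1 and HERPUD1 had ratios of 1.16 and 1.26, and the chaperones with the same elements had ratios from 0.370 for SDF2L1 to 0.684 for HYOU1. Among all measured genes with an ERSE match, 8 of 16 were above 1, none was 2-fold higher and 2 were 2-fold lower. These 16 include 6 listed genes, among them CRELD2 and HSP90B1, the 2 that were 2-fold lower. With an ERSE-II match 5 of 14 were above 1, none was 2-fold higher and 2 were 2-fold lower. These 14 include 3 listed genes, among them SDF2L1, which was 2-fold lower. The shares of all measured genes were 48.9% above 1, 5.81% 2-fold higher and 5.10% 2-fold lower. Nothing is read from either count. Further motifs searched on both strands were the ATF6 site TGACGTG (1.97% of windows) and the cyclic AMP response element TGACGTCA (1.85%). An ATF4-type element was likewise searched, only in the form TGATGNAAT (0.991%). None of the 10 members had one of these exact letter strings, and looser forms were not searched. The upstream ERSE-II match of HYOU1 overlaps a TGACGTG match. A match is only a match of letters, and no match says only that these letters are not in the window.

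**Figure D3:**
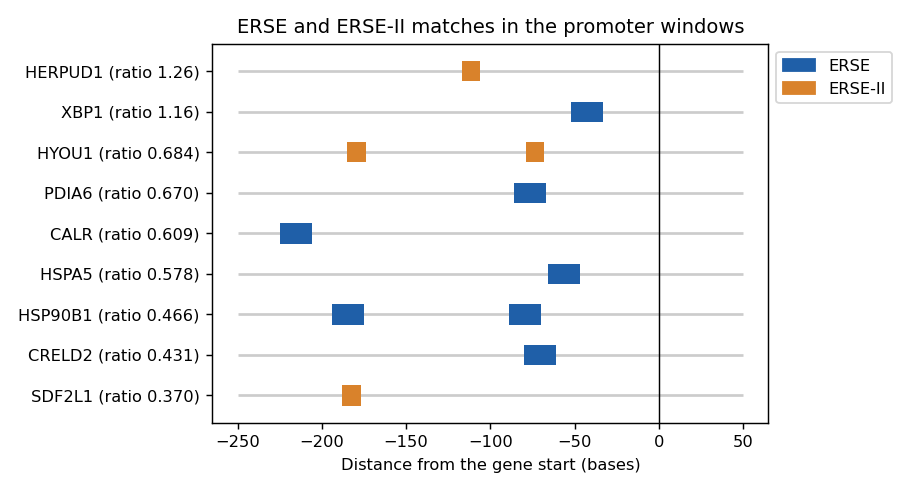
Positions of ERSE and ERSE-II matches in the windows from 250 bases before to 50 after the gene start, for the 9 listed genes with a match, ordered by their ratio (homochlorcyclizine over DMSO), which is printed beside each name. XBP1 and HERPUD1 are the genes above 1, at 1.16 and 1.26, and SDF2L1 is lowest at 0.370.

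Genes of the secretory route that are known XBP1 targets differed little. Of 16 measured, 3 were above 1 and 13 below it, none passed 1.5-fold, and the median log2 ratio was -0.14. Of all measured genes, 48.9% were above 1 and 14.1% passed 1.5-fold in each direction. SPCS1, a signal peptidase subunit, had 44.8 and 30.3 CPM, a ratio of 0.677 (0.628 to 0.729), and SPCS3, another subunit, one of 0.775 (0.744 to 0.808). The members DNAJB9 and EDEM1 are also known XBP1 targets and had ratios of 1.53 and 1.36.

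Of 7 partners of IRE1, 5 were below 1 and 2 above it, with a median log2 ratio of -0.29. Their summed level was 1621 CPM with DMSO and 1717 CPM with homochlorcyclizine. TMBIM6 carried most of that sum, at 1028.5 and 1240 CPM. DAB2IP lay at 0.996 and was above 1 under scaling by median of ratios or upper quartile. MAP3K5, the kinase ASK1 that acts downstream of IRE1, had 9.29 and 5.26 CPM, a ratio of 0.567 (0.475 to 0.672). DDX1, a helicase of the ligase complex that joins the XBP1 exons, had one of 0.727 (0.706 to 0.749). RTCB, the ligase itself, chosen after its values were seen, had one of 0.815 (0.789 to 0.842). The genes above 1, also chosen after their values were seen, were TMBIM6, an inhibitor of IRE1, at 1.21 (1.19 to 1.22) and the kinase MAPK8 at 1.09 (1.03 to 1.16). Of 6 measured mRNAs described as targets of IRE1-dependent decay, 3 were above 1 and 3 below it, and 2 were at least 2-fold higher. Of all measured genes, 48.9% were above 1 and 5.81% were 2-fold higher. COL6A1, a collagen chain, was 2.08-fold higher (1.89 to 2.30) and CD59, a complement inhibitor, 2.04-fold higher (1.93 to 2.15). SCARA3 and BLOC1S1, chosen after their values were seen, had ratios of 0.528 (0.449 to 0.618) and 0.859 (0.795 to 0.929).

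The genes downstream of PERK had a higher median than the ERAD lists. Of 14 genes of the PERK and ATF4 arm, 11 were above 1, none was 2-fold lower and 4 were at least 2-fold higher, against 48.9%, 5.10% and 5.81% of measured genes. By the looser rule 10 were 1.5-fold higher and 1 was 1.5-fold lower, each against 14.1% of measured genes. The median log2 ratio of the 14 genes was 0.73. ATF4 itself, chosen after its values were seen, had 539 and 892 CPM, a ratio of 1.66 (1.63 to 1.68). ATF3, a stress-induced factor, had 15.9 and 79.6 CPM. CHAC1, which degrades glutathione, had 11.5 and 42.9 CPM, and TRIB3, a pseudokinase that restrains ATF4, 213 and 566 CPM. DDIT3, which encodes CHOP, had 12.0 and 26.5 CPM. EIF2S1, chosen after its values were seen, encodes the subunit of eIF2 that PERK phosphorylates, and had 184 and 121 CPM, a ratio of 0.660 (0.636 to 0.684). EIF2AK3 itself lay below the 4 genes past 2-fold, at 1.82. These genes answer to several eIF2alpha kinases, so their ratios are not a readout of PERK alone.

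Liver targets described for CREB3L3 were detected in part. Of 11 genes, 5 were measured, all 5 were above 1 and 3 were at least 2-fold higher, against 48.9% and 5.81% of measured genes. CIDEC, a lipid droplet protein, had 237 and 1543 counts, or 6.20 and 37.9 CPM, a ratio of 6.09 (5.33 to 7.04). APOA4, an apolipoprotein, had 101 and 495 counts, a ratio of 4.57 (3.71 to 5.76). CPT1A, which admits fatty acids to mitochondria, had 80.9 and 240 CPM, a ratio of 2.96 (2.84 to 3.09). APOC2 and PPARA, the other measured genes, had ratios of 1.07 (1.00 to 1.15) and 1.12 (1.06 to 1.18). Under 1 CPM, FGF21 had 3 and 15 counts, APOA5 25 and 38, HAMP 0 and 12, and BDH1 17 and 59. The acute phase genes CRP and APCS had 0 counts in both libraries. These genes have other regulators too, among them PPARA.

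Receptors for ER-phagy, the lysosomal route of ER turnover, were mostly above 1. Of 7 measured, 6 were above 1 and 1, CALCOCO1, was at least 2-fold higher, against 48.9% and 5.81% of measured genes. The median log2 ratio of the 7 was 0.54. CALCOCO1 had 15.3 and 33.7 CPM, a ratio of 2.20 (2.00 to 2.43), and RETREG1, which encodes the receptor FAM134B, had 18.2 and 32.2 CPM, a ratio of 1.77 (1.62 to 1.95). ATL3, chosen after its value was seen, had a ratio of 0.990 (0.954 to 1.03).

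**Figure D4:**
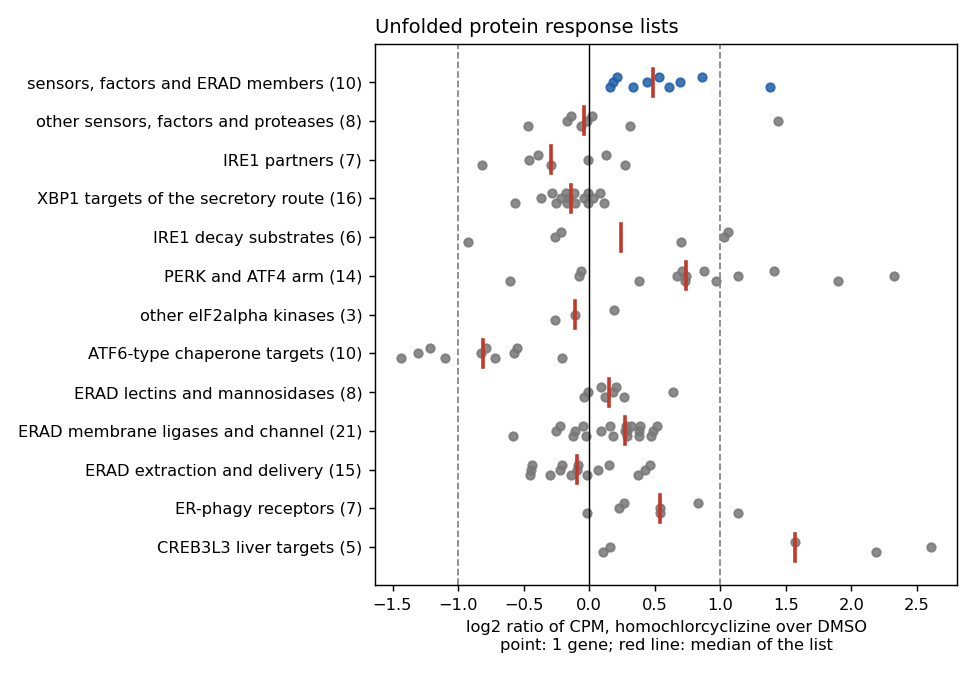
log2 ratio of CPM, homochlorcyclizine over DMSO, for each measured gene (points) of the 10 members and 12 further lists, with the number of measured genes in brackets, the median of each list as a red line and dashed lines at 2-fold. The median is 0.49 for the members, 0.73 for the PERK and ATF4 arm and -0.81 for the chaperone genes assigned to ATF6.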

How the data were processed

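The authors deposited raw counts per gene symbol for both libraries and FPKM values for each. The build was hg38, per the submitters' processing notes. Aligner, counting program and annotation were not given in the sources used here. In genes with counts in both libraries, the deposited FPKM ratio differed from the ratio of counts over totals by at most 3.13e-05%, so the tables hold one measurement.

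Library sizes were scaled with TMM in edgeR 4.0.16 (R 4.3.3). Ratios of CPM with a prior count of 1, exact Clopper-Pearson intervals conditional on the summed count, and exact Poisson intervals for CPM were computed in Python 3.11.15 with scipy 1.17.1. Intervals and the floor of 3 counts cover counting error only, and PCR copies are not independent molecules. Since each group is 1 library, conditions could not be tested and no p-value is given.

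The members and the 16 other lists were chosen with earlier results of these data known. Named genes are all 10 members and, per list, up to 4 genes past 2-fold, or the 2 with the largest absolute log2 ratio where fewer than 2 passed. Besides these, the text names the listed genes with an ERSE or ERSE-II match, relatives of the members and the proteases MBTPS1 and MBTPS2. It also names the markers, the low-count CREB3L3 targets, DNAJB11, DAB2IP, DERL3, APOC2 and PPARA. All of these further genes, like those so marked in the text, were chosen after their values were seen. Coordinates and promoters are from RefSeq on GRCh38.p14, matched by symbol, and count from 1.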

Additional observations from a re-analysis of the deposited data

How the results depend on the processing

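No paired analysis was possible because each group is 1 library and the labels give no replicate numbers. Under scaling by totals, median of ratios or upper quartile, no filter or 5 CPM, a prior count of 5, the deposited FPKM ratio, and removal of the length trend, all 10 members stayed above 1, 1 was 2-fold higher and 4 were 1.5-fold higher. ERN1 ran from 2.43-fold to 2.65-fold, ATF6 from 1.05 to 1.16 and SEL1L from 1.05 to 1.14. TPM is FPKM times a constant within a library, so it could not change the order of levels. Scaling by totals and the FPKM ratio each gave 1 ERAD membrane gene 1.5-fold lower, against 0. Upper quartile scaling and removal of the length trend each left 5 of the XBP1 secretory targets above 1, against 3. Upper quartile scaling gave 0 genes of the PERK and ATF4 arm 1.5-fold lower, against 1. With no filter, 6 CREB3L3 targets were 2-fold higher, 6 were 1.5-fold higher and 9 were above 1, because genes of few counts enter. With the length trend removed, 1 IRE1 decay target was 2-fold higher, against 2. The cause was not tested for the others. The spread between cultures was not measured and limits every ratio.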
